A study of Mus musculus with 474 samples.

Results

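The genes described here, 9 in all, protect cells from oxidants and reactive compounds, and their levels were followed through the skeletal muscle of Diversity Outbred mice. They (Nqo1, Hmox1, Gclm, Gclc, Txnrd1, Srxn1, Gstm1, Gsta4 and Gsr) were taken by their symbols from the 20612 genes in the count and score tables. No condition was set on their values, but earlier results of these data were known when they were chosen. This stock goes back to 8 inbred strains and is kept outbred, and its animals differ in the founder segments they inherited. The muscle was gastrocnemius, according to the study's methods. Each animal gave 1 RNA-seq library. All animals ate the same diet, labeled as 45% fat, which the study describes as high in fat and sugar, so there was no group on another diet. The groups were the sexes, as labeled, and a number in the library title, 17, 18, 19, 21 or 23, which was taken for the generation of outbreeding, an assumption for some of these numbers. In the order of these numbers there were 48, 45, 49, 46 and 47 females and 46, 48, 50, 47 and 48 males. All animals were adults, and the founder alleles they carried at these genes were not analyzed here.

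These genes belong to the antioxidant response. The transcription factor NRF2 (encoded by Nfe2l2) is held low by KEAP1, which marks it for destruction, and oxidants or electrophiles that modify KEAP1 release it to bind antioxidant response elements in DNA together with small MAF proteins. The repressor BACH1 competes for the same elements until it binds heme. Within the group, GCLC and GCLM form the ligase that starts glutathione synthesis, GSR returns oxidized glutathione to its reduced form, and TXNRD1 does the same for thioredoxin. SRXN1 repairs overoxidized peroxiredoxins, NQO1 reduces quinones, HMOX1 breaks down heme, and GSTM1 and GSTA4 join glutathione to reactive compounds. Working muscle produces oxidants steadily, and most of these enzymes are also found in the other cells of the tissue.

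All libraries were deep enough to measure all 9 genes. Total counts ran from 35902446 to 165723762, with a median of 79308916, and the lowest count of any of the 9 genes in any library was 127 (Hmox1). All 9 genes passed the filter on low counts, which kept 18823 genes. There were 5 libraries (3 labeled female and 2 labeled male) whose sex-linked RNA did not go with the label. They were kept, and leaving them out changed no call for the 9 genes in the comparisons of the sexes, the generations, their interaction, the library blocks or the spread. The defining muscle fiber markers were abundant, with summed levels between 88806 and 188274 CPM (the count per 1000000 counts of the library, after TMM scaling) in females and between 95457 and 172723 CPM in males.

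The genes lie on chromosomes 2, 3, 8, 9 and 10 (GRCm38), and all are protein-coding. Nqo1 spans chr8:107388225-107403206 on the reverse strand, Hmox1 spans chr8:75093621-75100589 and Gsr spans chr8:33652523-33698163. Gclm spans chr3:122245557-122270732 and Gstm1 spans chr3:108012255-108017973 on the reverse strand. Gclc (chr9:77754535-77794485) and Gsta4 (chr9:78182774-78209349) are near neighbors, with 388.3 kilobases and 6 genes of the table between them. Txnrd1 spans chr10:82833951-82897712 and Srxn1 spans chr2:152105516-152111376. Gclm shares 540 of its 6291 exon bases with other annotated genes, so part of its count is uncertain. One of those genes, Gm17494 on the opposite strand, was measured at a median of 1.11 CPM, against 11.5 CPM for Gclm. Gstm1 is 1 of a cluster of similar genes, and how reads were divided between them was not tested.

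Promoter sequence from RefSeq (GRCm38.p6) matched 5 of the 9 genes (Srxn1, Gstm1, Gclm, Nqo1 and Txnrd1), with 8 annotated start sites among them. No entry matched Hmox1, Gclc, Gsta4 or Gsr. The 250 bases before each start were searched on both strands for the core of the antioxidant response element, TGACNNNGC, and for the AP-1 site, TGANTCA. The 3 stretches with a match are shown here because Srxn1 and Txnrd1 moved together most closely among the 9 genes and Gclm and Srxn1 differed most between the sexes. Capitals mark the matches.
Srxn1, chr2:152105274-152105523: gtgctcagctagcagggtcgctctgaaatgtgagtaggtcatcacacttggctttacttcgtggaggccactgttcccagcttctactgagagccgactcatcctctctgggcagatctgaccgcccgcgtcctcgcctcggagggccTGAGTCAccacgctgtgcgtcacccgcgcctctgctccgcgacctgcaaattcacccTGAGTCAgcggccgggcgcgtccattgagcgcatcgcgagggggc
Txnrd1, second start, chr10:82858956-82859205: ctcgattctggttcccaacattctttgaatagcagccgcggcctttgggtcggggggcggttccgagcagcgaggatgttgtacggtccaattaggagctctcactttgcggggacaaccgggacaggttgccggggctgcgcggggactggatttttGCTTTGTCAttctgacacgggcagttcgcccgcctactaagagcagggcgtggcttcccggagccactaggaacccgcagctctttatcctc
Gclm, chr3:122245307-122245556: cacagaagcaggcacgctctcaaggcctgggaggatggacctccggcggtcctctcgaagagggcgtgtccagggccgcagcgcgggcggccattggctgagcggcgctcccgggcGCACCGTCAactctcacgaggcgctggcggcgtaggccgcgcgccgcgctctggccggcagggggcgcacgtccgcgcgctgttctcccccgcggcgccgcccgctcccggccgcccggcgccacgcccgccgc

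The Srxn1 stretch held 2 AP-1 matches, which begin 102 and 45 bases before its start, and no match to TGACNNNGC. The element core is also met with G in place of C, as TGAGNNNGC, which was searched after the sequences were seen. That form occurred in the Srxn1 stretch at TGAGTCAGC, which holds the AP-1 match nearer the start, and at TGAGTCGGC on the opposite strand, beginning 158 bases before the start, and in none of the other stretches of these genes. The Txnrd1 and Gclm stretches each held 1 match to TGACNNNGC on the opposite strand, read there as TGACAAAGC (beginning 92 bases before the start) and TGACGGTGC (134 bases before it). TGACNNNGC occurred in 10.2% of all 32851 promoter stretches of this length, TGAGNNNGC in 14.4% and the AP-1 site in 6.75%. The stretches of Nqo1 and Gstm1 and the other 2 starts of Txnrd1 held none of these letters. Coordinates follow the starts that RefSeq gives.

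Gstm1 was by far the most abundant of the 9 genes per length. Its median over all animals was 54.4 CPM per kilobase of exon, and it was above Srxn1 in 99.4% of animals. Srxn1 (median 10.1 CPM per kilobase), Txnrd1 (1.01 times lower), Nqo1 (9.39) and Gsr (8.38) followed at like levels. Srxn1 was above Txnrd1 in only 54.0% of animals, Txnrd1 above Nqo1 in 59.7% and Nqo1 above Gsr in 68.8%, so the order of these 4 was not separated by the spread between animals. Gsta4 (6.16) was below Gsr in 90.9% of animals. The glutathione ligase subunits and heme oxygenase were lowest. The median was 3.53 CPM per kilobase for Gclc, 2.34 for Hmox1 and 1.83 for Gclm, which has long exons. Gsta4 was above Gclc in 95.4% of animals, Gclc above Hmox1 in 92.6% and Hmox1 above Gclm in 84.0%. On the same scale the regulators Nfe2l2, Keap1 and Bach1 had medians of 11.3, 11.2 and 5.79 CPM per kilobase.

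**Figure D1:**
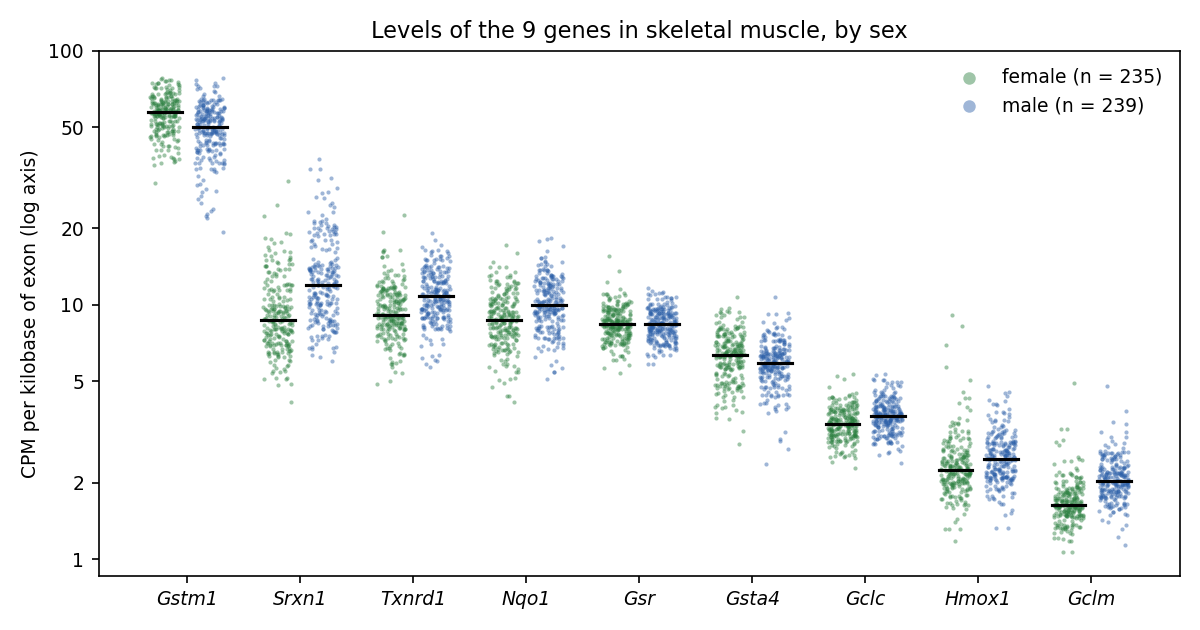
Level of each of the 9 genes in CPM per kilobase of exon (log axis), with 1 point per animal, females in green and males in blue, and a black line at the median of each sex. Gstm1 lies above the rest, 4 genes lie near 10 CPM per kilobase, and Gclm is lowest, and the sexes overlap for every gene.

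The genes differed in how far animals spread. For Gsr and Gclc, the level at the 95th percentile of animals was 1.60 and 1.63 times that at the 5th percentile. The same ratio was 1.98 for Gclm, 2.04 for Gstm1, 2.09 for Gsta4, 2.22 for Hmox1, and 2.27 for both Nqo1 and Txnrd1. It was 3.34 for Srxn1, whose residual SD after sex and generation, on the score scale, stood at the 93.1 percentile of all genes tested. Srxn1 also had the most animals far above its median. In 30 animals (27 males and 3 females) it exceeded 2 times the median, and the highest, DO316, a male of generation 19, reached 105.6 CPM against a median of 28.4. Gstm1 had a lower tail instead, with 9 animals, all male, at less than 0.5 times the median. Hmox1 exceeded 2 times its median in 6 animals, 5 of them female, and the highest was a female of generation 23 (DO461) at 15.97 CPM.

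One library stood apart on several of these genes together. DO168, from a female of generation 18, was the highest of all libraries for Gclm (31.0 CPM, 2.70 times the median), Txnrd1 (159.5 CPM, 2.25 times) and Gsr (43.0 CPM, 1.87 times). It was the second highest for Gclc (20.1 CPM), the fourth for Nqo1 (26.6 CPM) and Hmox1 (9.94 CPM), and the sixth for Srxn1 (86.8 CPM). The transferases did not share this. Gstm1 was at 82.8 CPM and Gsta4 at 6.01 CPM, 1.03 and 0.771 times their medians. Among the regulators, Bach1 was highest in this library (93.1 CPM, 2.60 times the median), Nfe2l2 second highest (89.9 CPM) and Keap1 the third highest (66.6 CPM). Its total count, 89922611, and the share of counts on mitochondrial genes, 12.2% against a median of 10.1%, lay within the range of the others. Leaving it out changed no call for the 9 genes in the comparisons of the sexes and the generations.

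The first comparison asked whether the genes differed between the sexes. The enzymes of glutathione synthesis, thioredoxin reduction, peroxiredoxin repair and quinone reduction were higher in males, and both glutathione transferases were lower. Of the 9 genes, 6 were higher in males (Srxn1, Gclm, Nqo1, Txnrd1, Gclc and Hmox1), 2 were lower (Gstm1 and Gsta4) and Gsr did not pass the test (edgeR quasi-likelihood test with generation as covariate, adjusted p below 0.05 over all genes). Among all genes tested, 55.0% passed it, 24.4% higher in males and 30.6% lower, so that passing was common in this muscle. Differences were small. None of the 9 reached 1.5-fold, which 5.30% of all genes did while passing the test. The median absolute log2 difference was 0.19 over the 9 genes, against 0.15 over the 10362 genes that passed the test and 0.09 over all genes tested. In bulk tissue, fewer cells of a type and less RNA per cell cannot be told apart.

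Srxn1, the sulfiredoxin that repairs peroxiredoxins, differed most. It ran from 11.7 to 86.8 CPM in females, with a median of 24.6, and from 16.9 to 105.6 CPM in males, with a median of 33.9. The ranges overlapped widely, with the upper part filled mainly by males. It was 1.39-fold higher in males (log2 difference 0.47, SE 0.05, adjusted p = 1.2e-20), and higher in 5 of 5 generations, with log2 differences from 0.37 to 0.55.

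Gclm, the modifier subunit of the glutathione ligase, ran from 6.71 to 31.0 CPM in females, with a median of 10.3, and from 7.16 to 30.1 CPM in males, with a median of 12.8. Most of the range was shared by the sexes. It was 1.22-fold higher in males (log2 difference 0.29, SE 0.03, adjusted p = 1.9e-24), again in 5 of 5 generations. Gclc, the catalytic subunit, was higher in males by 1.07-fold (log2 difference 0.10, SE 0.02, adjusted p = 9.2e-07), with medians of 12.8 CPM in females and 13.8 CPM in males. The 95% interval of the log2 difference was 0.24 to 0.34 for the modifier subunit and 0.06 to 0.14 for the catalytic one.

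Nqo1, the quinone reductase, had medians of 13.6 CPM in females (range 6.43 to 26.6) and 15.5 CPM in males (7.90 to 28.4). It was 1.15-fold higher in males (log2 difference 0.20, SE 0.03, adjusted p = 1.6e-09). Txnrd1, the cytosolic thioredoxin reductase, had medians of 64.9 CPM in females (34.5 to 159.5) and 76.6 CPM in males (40.4 to 135.7). It was also 1.15-fold higher in males (log2 difference 0.20, SE 0.03, adjusted p = 4.1e-09). Both were higher in males in 5 of 5 generations, and for both the sexes overlapped over most of the range.

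Gstm1, a mu-class glutathione transferase, went the other way. It ran from 44.3 to 114.7 CPM in females, with a median of 84.3, and from 28.6 to 115.2 CPM in males, with a median of 74.1. The lowest part of the range held males only. Gstm1 was 1.14-fold higher in females (log2 difference, male minus female, -0.19, SE 0.03, adjusted p = 2.5e-10) in 5 of 5 generations. Its near copy Gstm2 had a larger difference in the same direction, -0.74. The other mu-class genes tested went both ways. Gstm6 (-0.36) and Gstm7 (-0.44) were lower in males, Gstm4 (0.13) was higher, and Gstm5 (0.07) did not pass the test.

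Hmox1 and Gsta4 had smaller differences that depended on how they were measured. Hmox1 had medians of 3.92 CPM in females (2.07 to 15.97) and 4.32 CPM in males (2.31 to 8.41), and the log2 difference was 0.08 (SE 0.04, adjusted p = 0.0375). It was positive in 4 of 5 generations and -0.07 in generation 23. With libraries scaled by total count alone it was 0.05 and no longer passed (adjusted p = 0.28). Gsta4, an alpha-class transferase active on aldehydes from lipid peroxidation, had medians of 8.06 CPM in females (3.60 to 13.6) and 7.51 CPM in males (2.99 to 13.6), and the log2 difference was -0.09 (SE 0.03, adjusted p = 0.00263). It was negative in 4 of 5 generations and 0.08 in generation 19. With scores of cell type markers other than those of muscle fibers as covariates it was -0.05 and no longer passed (adjusted p = 0.216). Gsr, the glutathione reductase, had medians of 23.1 CPM in both sexes and a log2 difference of -0.01 with a 95% interval from -0.05 to 0.03.

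**Figure D2:**
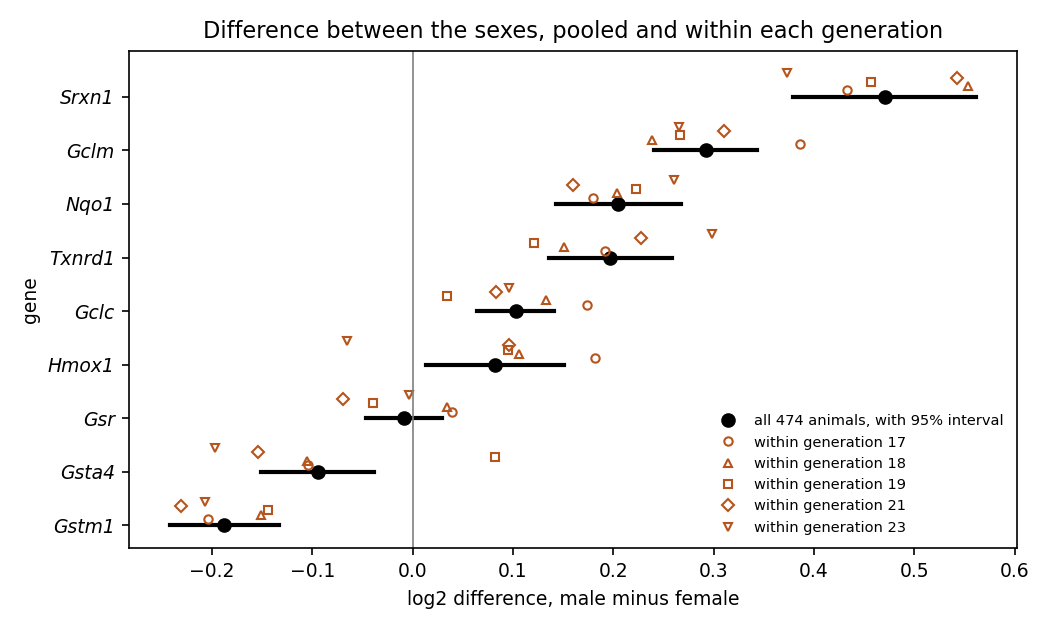
Log2 difference between the sexes (male minus female) for each gene, with the estimate over all animals and its 95% interval in black and the estimates within each of the 5 generations as open symbols. For Srxn1, Gclm, Nqo1, Txnrd1 and Gclc all 5 generations lie above 0, for Gstm1 all 5 lie below it, and Hmox1, Gsr and Gsta4 have generations on both sides.

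Cell type markers also differed between the sexes. All 8 slow fiber markers were lower in males, as were 8 of 9 adipocyte markers, while the other adipocyte marker and all 5 endothelial markers were higher. Of the muscle fiber markers 4 of 8 were higher and 2 lower, of the fibroblast markers 2 of 5 were higher and 3 lower, and of the erythroid markers 3 of 5 were higher. For 3 of the 5 erythroid markers the sex difference varied between generations by the interaction test, which 0.531% of all genes passed. Only 2 of 10 macrophage markers and 1 of 5 Schwann cell markers differed, all lower in males. Summed levels ranged from 619.2 to 9946 CPM in females and 884 to 8212 CPM in males for slow fiber markers, and from 111 to 1424 CPM and 124 to 786 CPM for adipocyte markers. No defining marker was at 0 in any library, apart from 1 of the erythroid genes. In every fit with marker scores as covariates, the muscle fiber score was left out. With the remaining scores, 7 of the 8 genes that differed between the sexes still passed the test, all but Gsta4. The sex differences were thus not adjusted for muscle fiber markers.

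The spread between animals was compared between the sexes as well. Gstm1 spread more in males, by 0.06 score units in the mean absolute deviation from the group median (SE 0.02, limma on the deviations, adjusted p = 0.0148). Of all genes, 5.55% differed in spread and 1.75% had the larger spread in males. Srxn1 had a difference of 0.05 (SE 0.03) that did not pass (adjusted p = 0.282). Over all 8 other genes adjusted p ran from 0.189 (Gsta4, -0.03) to 0.999 (Gclc).

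The second comparison asked whether the genes differed between generations. Srxn1 was the only 1 of the 9 that did (edgeR quasi-likelihood test with sex as covariate, adjusted p = 2.4e-05), against 7.56% of all genes tested. The fitted levels differed by 1.29-fold between the highest and the lowest generation (log2 range 0.37). Its median was 31.2 CPM in generation 17, 33.1 in generation 18, 25.5 in generation 19, 28.8 in generation 21 and 26.8 in generation 23. Generations 17 and 18 were thus higher than the later 3, although all 5 overlapped. Animal numbers run in stretches that follow these generations. Generation and anything else shared by such a stretch, such as time of collection, cannot be told apart. In females the medians were 26.8, 27.6, 22.8, 23.1 and 22.8 CPM in the same order, and in males they were 37.5, 39.1, 29.3, 34.7 and 31.2 CPM. Taken alone, the males passed the test (adjusted p = 0.0148) and the females did not (adjusted p = 0.0804).

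Cell type markers differed between generations as well, by the same test. The calls covered 4 of 5 erythroid markers, among them Alas2 and Hbb-bt (log2 ranges of 0.91 and 0.85 between the highest and the lowest generation), 4 of 10 macrophage markers, 3 of 9 adipocyte markers and 1 of 5 fibroblast markers, and none of the muscle fiber, slow fiber, endothelial or Schwann cell markers. In the order of the generations the median summed level was 128.2, 124.6, 142.9, 148.2 and 162.02 CPM for erythroid markers, 107.2, 100.7, 113.4, 106.2 and 113.5 CPM for macrophage markers, 250.4, 247.2, 259.5, 270.1 and 321.3 CPM for adipocyte markers and 793.9, 844.02, 827.8, 789.6 and 868.2 CPM for fibroblast markers. The generations overlapped widely in all 4 sums. With the marker scores as covariates the log2 range of Srxn1 was 0.35 and it still passed (adjusted p = 0.000198).

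**Figure D3:**
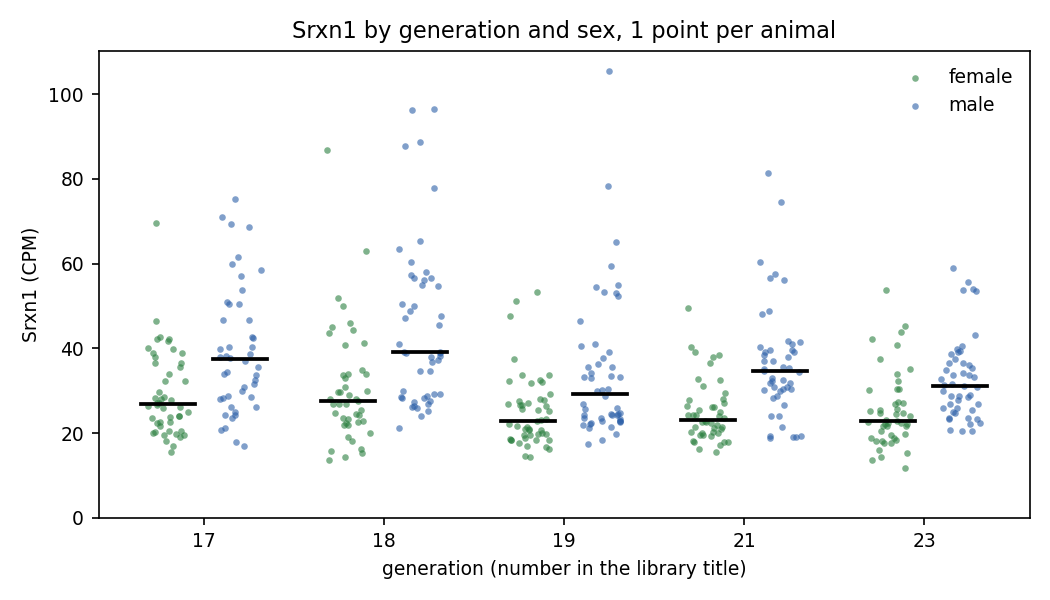
Srxn1 level in CPM for each animal by the generation number in the library title, females in green and males in blue, with a black line at the median of each group. Male medians lie between 29.3 and 39.1 CPM and female medians between 22.8 and 27.6 CPM, and both sexes have their highest median in generation 18.

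The other 8 genes had adjusted p between 0.246 (Gclc) and 1.0 (Txnrd1) for generation. Txnrd1, the gene most closely correlated with Srxn1 among the 9, had a log2 range of only 0.01 between generations, against 0.37 for Srxn1. None of the 9 genes passed the test of whether the sex difference varied between generations. The interaction test gave an adjusted p of 0.66 for Gsta4 and 1.0 for the other 8, and 0.531% of all genes passed it.

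Library number was examined as a possible technical factor, since the numbers have 1 gap of more than 3. They were divided here into 5 blocks of at most 96 consecutive numbers, a division that the labels do not give. Between these blocks, with sex and generation as covariates, 47.4% of all genes differed, and 4 of the 9 did (edgeR quasi-likelihood test). These were Gsr (adjusted p = 3.9e-05), Gclm (0.000243), Gclc (0.000257) and Gsta4 (0.000313), with log2 ranges of 0.13, 0.17, 0.13 and 0.18 between the highest and lowest block. In the deposited scores, by limma, Gclm and Gclc still differed between blocks, whereas Gsr (adjusted p = 0.743) and Gsta4 (0.0641) did not. Block took 5.84% of the variance of Gsr in log2 CPM but 0.547% in the deposited score, and 4.92% against 2.24% for Gsta4. For the median gene the shares were 2.06% and 1.67%. The scores thus carried less block variance for these genes than the counts did. The sex differences of Srxn1, Gclm, Nqo1, Txnrd1, Gclc and Gstm1 had the same sign in 5 of 5 blocks.

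The third question was whether the genes moved together from animal to animal. Correlations were taken over all animals on the deposited scores after sex and generation were fitted, with 36 pairs among the 9 genes, 2-sided permutation tests and adjustment over the 36. Most pairs among the reductases, the ligase subunits, Srxn1 and Hmox1 were positive, and the 4 negative pairs that passed the test all held a transferase. By Pearson's r, 22 of 36 pairs passed the test, 18 of them positive and 4 negative, and 20 of these also passed by Spearman's rho. The smallest absolute r that passed was 0.107. The share of all gene pairs that reach this size was not computed, so whether 22 of 36 is unusual here cannot be judged. Of the 18 positive pairs, 13 were positive in all 5 library blocks. Most were weak. The median absolute r over the 36 pairs was 0.141, against 0.0601 over all pairs of genes tested, but only 1 of 36 pairs (2.78%) exceeded 0.3, against 3.67% of all pairs.

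Txnrd1 and Srxn1 were the closest pair, with r = 0.434 and rho = 0.404 (permutation adjusted p = 3.6e-05 and 7.2e-05, from the smallest p the permutations can give, 1e-05). The correlation was 0.497 in females and 0.389 in males, ran from 0.289 to 0.599 within the 5 blocks, and was 0.409 without the 2 animals farthest from the median of Txnrd1. It was 0.419 without DO168. Leaving out that library left 20 pairs that passed, with Hmox1-Txnrd1 (r = 0.0848, adjusted p = 0.106) and Txnrd1-Gsta4 (r = -0.0982, adjusted p = 0.0548) no longer among them. Nqo1 was related to Srxn1 at r = 0.282 (rho = 0.262) and to Txnrd1 at r = 0.20 (rho = 0.186), each positive in all 5 blocks.

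The subunits of the glutathione ligase, Gclm and Gclc, had r = 0.274 (rho = 0.194), with a range from 0.0218 to 0.41 over the blocks. Both were related to Gsr and Txnrd1. Gclm and Gsr had r = 0.28 (rho = 0.184), or 0.239 without DO168, and Gclc and Gsr had r = 0.19 (rho = 0.165). With Txnrd1, r was 0.235 for Gclm and 0.235 for Gclc (rho = 0.192 and 0.199). Gclc was also related to Srxn1 (r = 0.24, rho = 0.218), whereas Gclm and Srxn1 had r = 0.0557 (adjusted p = 0.281), although these 2 genes had the largest sex differences.

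Hmox1 was related to Gclm at r = 0.258 (rho = 0.23), from 0.0731 to 0.559 within blocks, and to Srxn1 at r = 0.192 (rho = 0.174), and these pairs were positive in 5 of 5 blocks. Its relation to Txnrd1 (r = 0.113) passed by Pearson's r but not by Spearman's rho (adjusted p = 0.0234 and 0.146). With Gsr its r was -0.0109.

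Of the 4 negative pairs, 3 involved Gsta4. Gclc and Gsta4, the neighbors on chromosome 9, had the lowest r, -0.245 (rho = -0.213, adjusted p = 3.6e-05 and 7.2e-05). It was negative in all 5 blocks, from -0.371 to -0.15, and was -0.258 in females and -0.225 in males. Without the 2 animals farthest from the median of Gclc it was -0.231. Gclm was negatively related to Gsta4 (r = -0.14, rho = -0.107) and to Gstm1 (r = -0.143, rho = -0.11), and Txnrd1 to Gsta4 (r = -0.107), the last not by rho (adjusted p = 0.109). Nqo1 alone was positively related to both transferases, at r = 0.179 with Gsta4 and 0.136 with Gstm1. Gstm1 and Gsta4 had r = 0.0698 with each other (adjusted p = 0.179).

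**Figure D4:**
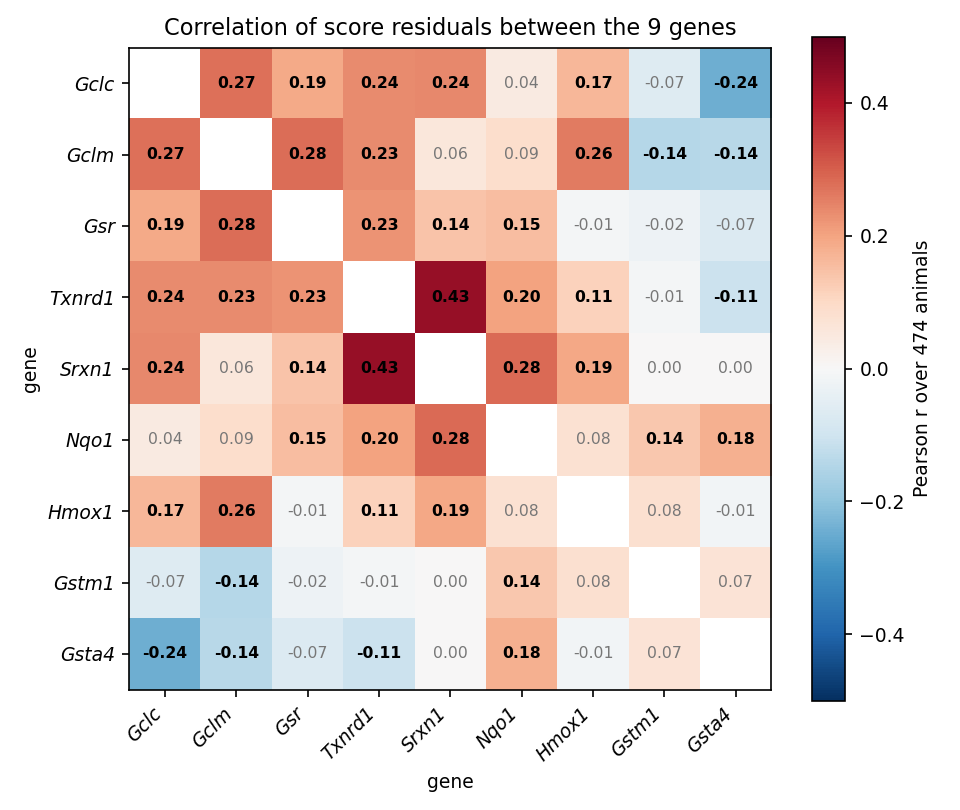
Pearson r between the score residuals (after sex and generation) of each pair of the 9 genes over all animals, red for positive and blue for negative, with bold values for pairs with an adjusted permutation p below 0.05. The highest value is 0.43 for Txnrd1 and Srxn1 and the lowest is -0.24 for Gclc and Gsta4, and the 4 negative values in bold all lie in the rows of Gstm1 or Gsta4.

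The correlations were also set side by side for the sexes. No pair differed between females and males by a permutation of the sex labels within generations, adjusted over the 36 pairs. The largest difference was for Nqo1 and Srxn1, with r = 0.436 in females and 0.151 in males (unadjusted p = 0.00214, adjusted p = 0.077). Txnrd1 and Gsr followed, with r = 0.362 and 0.083 (adjusted p = 0.12).

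Markers of other cell types moved with some of the genes. Of 72 relations between the 9 genes and 8 marker scores, each score being the mean standardized residual of its list, 14 passed the permutation test by Pearson's r. These 14 (19.4%) had an absolute r of at least 0.121, which 25.7% of the relations of all genes tested with the same scores reached, so relations of this size were common in the muscle. Hmox1 rose with the macrophage score more than any other gene did with any list (r = 0.413, rho = 0.43, permutation adjusted p = 0.00024 for both), from 0.272 to 0.579 within blocks and 0.404 without the 2 animals farthest from the median score. All 10 macrophage markers had counts in every library, and their summed level ran from 56.2 to 318.7 CPM in females and from 44.9 to 197.5 CPM in males. Hmox1 was also related to the adipocyte score (r = 0.238, rho = 0.25) and the erythroid score (r = 0.204, rho = 0.155). The part of these cells in the Hmox1 level was not tested.

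Gstm1 was related to the muscle fiber score (r = 0.225, rho = 0.208), and Gclm had the opposite sign (r = -0.192), though not by rho (-0.124, adjusted p = 0.0587). Nqo1 had r = -0.169 with the macrophage score and 0.125 with the muscle fiber score, and Gsr had r = -0.176 with the adipocyte score and -0.15 with the macrophage score. Srxn1 had r = -0.144 with the macrophage score and -0.139 with the fibroblast score. The remaining relations that passed were Gsta4 and Txnrd1 with the adipocyte score (0.144 and -0.123) and Gstm1 with the fibroblast score (-0.121). Without DO168 that of Txnrd1 was -0.116 and no longer passed (adjusted p = 0.0602). Of the 14, only those of Hmox1, of Nqo1 with macrophages, of Gstm1 with muscle fibers and of Gsr with adipocytes passed by rho as well. No gene had a relation that passed with the slow fiber, endothelial or Schwann cell score.

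Total count and mitochondrial share were set against the genes in 18 further relations. Gstm1 fell as the share of mitochondrial counts rose (r = -0.344, rho = -0.299, permutation adjusted p = 9e-05 and 0.00018), and Gclm rose with it (r = 0.255, rho = 0.129, adjusted p = 9e-05 and 0.0448). For Gstm1 r was negative in 5 of 5 blocks, from -0.536 to -0.155, and -0.324 without the 2 animals farthest from the median share. For Gclm it was positive in 4 of 5 blocks, from -0.046 to 0.518, and 0.234 without those 2 animals. The share ran from 7.01% to 20.05% of counts. None of the 9 genes was related to the total count, where adjusted p was 0.062 or more. With the marker scores other than that of muscle fibers fitted out, the same number of pairs, 22, passed the test, and Txnrd1 and Srxn1 had r = 0.427.

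**Figure D5:**
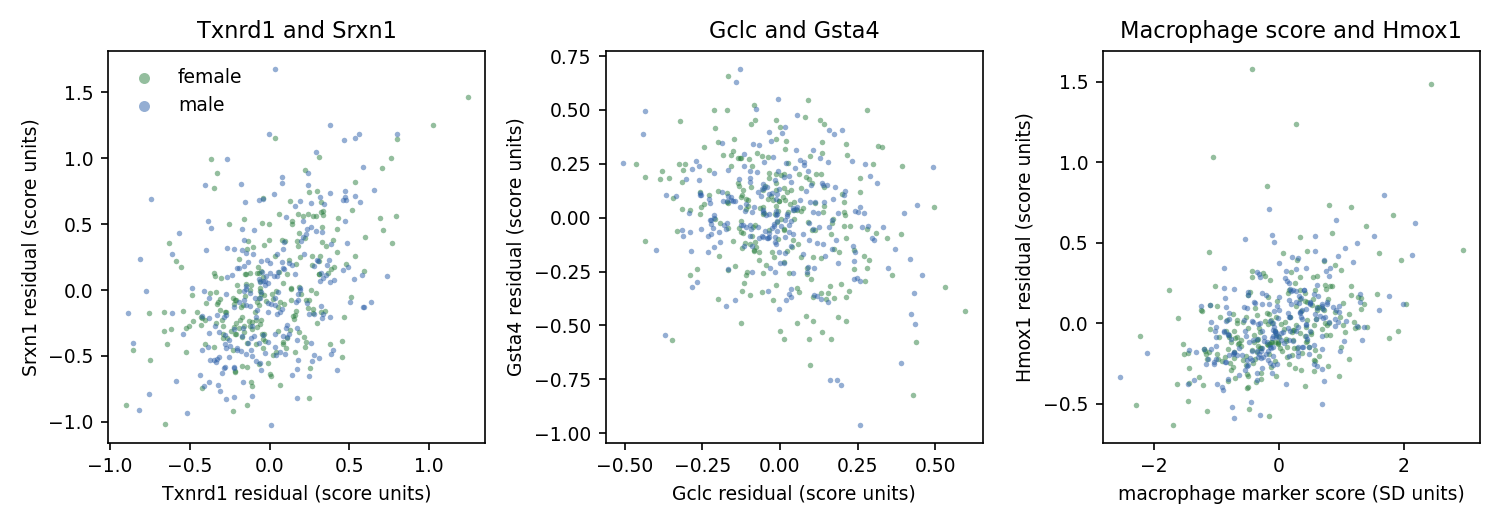
Residuals after sex and generation for each animal (females green, males blue), for Srxn1 against Txnrd1, Gsta4 against Gclc, and Hmox1 against the macrophage marker score, with genes in score units and the marker score in SD units. The first panel rises (r = 0.434), the second falls (r = -0.245) and the third rises (r = 0.413), with several female animals far above the rest in Hmox1.

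The genes most like each of the 9 over all animals were named as the 3 with the highest Pearson r among genes tested, a description with no test. They fell into kinds that differed between the 9. For Srxn1 they were Xirp1 (r = 0.68), which encodes an actin-binding protein of muscle, Rcan1 (0.60), an inhibitor of calcineurin, and Ifrd1 (0.58). None of its 20 most alike genes lay within 4 megabases, and the same held for Hmox1, Gclm, Gclc and Gsr. Only 116 genes lay within that distance of Srxn1, beside 18823 genes tested. For Hmox1 they were C1qc, C1qb and C1qa (0.43, 0.43 and 0.42), the chains of complement C1q, which are made by macrophages and were themselves members of the macrophage list. For Gclm they were Zfand5 (0.54), Rora (0.54) and Ranbp9 (0.52), for Gclc Clip1 (0.41), Epc2 (0.39) and Zranb1 (0.37), and for Gsr Atf1 (0.39), Txnl1 (0.34) and Mdm2 (0.33). For Nqo1 they were Vwa7 (0.39), Cpeb1 (0.35) and Pir (0.34), the last a gene of the pathway list that encodes pirin.

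For the other 3 the most alike genes lay partly beside them on the chromosome. Gstm1 was closest to Gstm2 (r = 0.75), Gstm5 (0.64) and 4933431E20Rik (0.41), all in the same stretch of chromosome 3, and 6 of its 20 most alike genes lay within 4 megabases. Reads of these similar transferases may have been divided between them, which was not tested. Gsta4 was closest to Mto1 (0.44), Gnb5 (0.39) and Lysmd2 (0.38), which all lie on chromosome 9 within 4 megabases of it. Txnrd1 was closest to Gm10146 (0.47), Gm10778 (0.44) and Srxn1 (0.43), and 9 of its 20 most alike genes lay within 4 megabases. Within that distance lay 98 genes for Gstm1 and 169 for Txnrd1, beside 18823 genes tested. The lowest r of Txnrd1, -0.52, was with 1190007I07Rik, which begins 0.214 megabases away, and that of Gstm1, -0.50, was with Lrif1, 1.33 megabases away. That of Gsta4, -0.55, was with the pseudogene Gm6548 on chromosome 17. These 3 were named after their values were seen.

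The wider pathway was described from a list of 86 genes in 9 roles, of which 84 were tested. Between the sexes 25 were higher in males and 31 lower, beside the 24.4% and 30.6% of all genes. The regulators leaned to males. Of 9, 7 were higher in males and none lower, including Nfe2l2 (log2 difference 0.09, SE 0.02), Keap1 (0.08, SE 0.01), Bach1 (0.15, SE 0.03) and the autophagy receptor Sqstm1 (0.18, SE 0.02), which had the largest difference of them. Heme and iron genes were higher in males in 4 of 6 cases, led by the iron exporter Slc40a1 (0.18). With the marker scores as covariates Slc40a1 was at 0.0995 and no longer passed (adjusted p = 0.0869), and with total count alone Nfe2l2 and Keap1 were at 0.0544 and 0.047 and still passed. Of the glutathione synthesis and turnover genes, 4 of 12 were higher and 2 lower, with Chac1, which degrades glutathione, at 0.62 (SE 0.09).

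In most other roles more genes were lower than higher in males, beside 30.6% and 24.4% of all genes. Of 5 glutathione peroxidases, 4 were lower in males, led by the secreted Gpx3 (-0.73, SE 0.05). Of 19 transferases tested, 9 were lower and 3 higher, with Mgst1 at 1.13 (SE 0.05), Mgst2 at -0.92 (SE 0.11, at mean levels of only 0.409 CPM in females and 0.213 CPM in males) and Gstm2 at -0.74 (SE 0.05). Of 7 NADPH supply genes, 5 were lower, led by the pentose phosphate enzyme Tkt (-0.62, SE 0.06), and 1 was higher. Among 13 thioredoxins and peroxiredoxins, 5 were lower and 2 higher, with the stress-induced Sesn1 at -1.01 (SE 0.05). The superoxide and peroxide group of 4 had 1 higher and 1 lower, an equal split, with mitochondrial Sod2 at 0.12 (SE 0.02), and the other detoxification genes had 3 higher and 5 lower of 9, with the largest difference for Osgin1, which was higher in males by 0.38 (SE 0.05). With the marker scores as covariates Tkt was at -0.31 and still passed. On the deposited scores Mgst2 was at -0.21 and still passed.

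Between generations 8 of the 84 pathway genes differed, beside Srxn1, where 7.56% of all genes did. They included the NRF2 gene Nfe2l2 (log2 range 0.15, adjusted p = 0.0105), the small MAF gene Maff (0.51, adjusted p = 0.0073), Gpx1 (0.18, adjusted p = 0.00172), Txnip, which binds thioredoxin (0.24, adjusted p = 4.3e-07), extracellular Sod3 (0.24, adjusted p = 0.00535) and Osgin1 (0.36, adjusted p = 7.1e-05). Maff did not pass by limma on the deposited scores (0.26, adjusted p = 0.197), and Sod3 did not with the marker scores as covariates (0.11, adjusted p = 0.306). No pathway gene passed the test of whether the sex difference varied between generations.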

How the data were processed

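RNA-seq libraries of skeletal muscle from 474 mice (235 labeled female, 239 labeled male) were used, grouped by the sex and number in their titles. The authors aligned both read ends as single reads to transcripts of all 8 founders, and the deposited expected counts, estimated for each gene by EMASE in the GBRS package, count read ends, and 68.6% were whole (tolerance 1e-06). They also deposited a score, the DESeq2 variance stabilizing transform, and describe removing batch effects. Versions and use of strand are not given in the sources used here. The build, GRCm38, comes from the submitters' processing notes, and 99.5% of gene starts equaled those of GENCODE M21, which gave exon lengths. Gene positions (unit other, in megabases) were deposited as well.

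Expected counts were rounded and analyzed in R 4.3.3 with edgeR 4.0.16 (filterByExpr, minimum count 10, TMM factors 0.871 to 1.29, trended dispersion), limma 3.58.1 and, as an alternative, DESeq2 1.42.0, with Benjamini-Hochberg adjustment over 18823 genes and a threshold of 0.05. CPM used TMM-scaled totals, and intervals are 95% intervals from the SE. Correlations used 100000 permutations in Python 3.11.15 with numpy 2.4.6 and scipy 1.17.1. Wave, a covariate of the study, is not in the labels and was not fitted. Library numbers (219 to 314, 323 to 418, 419 to 514, 515 to 610 and 611 to 701) were divided here into blocks of at most 96, restarted after the gap of more than 3. The functions were tested on simulated data. The 9 genes, the gene lists and the rules for naming genes were chosen with earlier results of these data known. The named genes were the 9, with Nfe2l2, Keap1 and Bach1, the pathway gene of each role that differed most between sexes or generations, any with at least 1.5-fold, and the 3 most alike genes. The mu-class transferases of the list were named as well, after their values were seen. DO168 was left out as an alternative, and the relations with depth and mitochondrial share and the search for TGAGNNNGC were added, after the data were seen. Each library is 1 animal. All value columns of both tables were mapped to a sample.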

Additional observations from a re-analysis of the deposited data

How the results depend on the processing

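Over all animals, no call for the 9 genes in the generation comparison changed with DESeq2, other size factors, other filters, added covariates or limma on the scores. The interaction was repeated by limma and without the 5 libraries at odds with their sex label, and the spread on log2 CPM and without those libraries, and no call for the 9 genes changed. Under the settings over all animals the calls for sex changed only for Hmox1 (total count alone) and Gsta4 (marker scores, where 1 of the 9 was lower in males). Within single generations and blocks, which hold fewer animals, fewer genes passed. For sex, 24.4% of genes were higher in males and 30.6% lower over all animals, whereas generations 17, 18, 19, 21 and 23 gave 11.6%, 10.2%, 10.4%, 12.1% and 12.1% higher and 11.1%, 13.2%, 10.2%, 12.7% and 13.2% lower. Of the 9 genes, 3 were higher in generation 19 and 3 in generation 21, while 1 was lower in generation 17 and 0 in generations 18 and 19. Gsta4 was at 0.0819 in generation 19 and Hmox1 at -0.0652 in generation 23. Blocks 1 to 5 gave 9.15%, 11.9%, 12.2%, 12.9% and 10.6% higher and 10.5%, 10.8%, 12.2%, 15.7% and 12.6% lower, with 2, 2 and 3 of the 9 genes higher in blocks 1, 3 and 5, 0 lower in block 1 and 1 lower in each of blocks 2 to 5. Bach1 was at -0.043 in block 5.

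For generation, females alone gave 2.87% of genes and 0 of the 9, and males alone gave 2.76%, in place of 7.56%. For library blocks, limma on the deposited scores gave 2 of the 9 genes in place of 4. For the interaction, limma gave 0 of all genes (870 at an unadjusted p under 0.05) in place of 100. For spread, log2 CPM gave 3.66% of genes in place of 5.55%. Of all 36 pairs, 12 passed within males and 6, 7, 6 and 2 within blocks 1 to 4, in place of 22. Within block 1, r was -0.0133 for Nqo1-Gsr and -0.0938 for Hmox1-Gclc. Within block 2 it was -0.103 for Hmox1-Txnrd1, -0.0163 for Gclc-Gsr and 0.0119 for Txnrd1-Gsta4. Within block 3 it was 0.0738 for Gclm-Gstm1, within block 4 -0.0684 for Nqo1-Gstm1, -0.034 for Hmox1-Txnrd1 and -0.00705 for Gclc-Gsr, and within block 5 0.321 for Hmox1-Gsr. Of all 72 marker relations, 3 passed within males and 6, 4, 2, 3 and 0 within blocks 1 to 5, in place of 14. Block 3 gave r = -0.0573 for Nqo1 with muscle fiber, 0.0123 for Gstm1 with fibroblast, 0.0283 for Gsr with adipocyte and 0.0696 for Gsr with macrophage, block 4 gave 0.039 for Gstm1 with fibroblast, and block 5 gave 0.0125 for Gclm with muscle fiber. The causes were not tested.

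No paired analysis was possible because each animal number occurs in 1 group only. Each group of sex and generation had over 5 animals, so no animal was left out in turn apart from DO168. Wave, litter and founder alleles were not used here, and their part in the differences was not tested. The lowest count of any of the 9 genes in a library was 127.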
